A study of Mus musculus with 3 samples.

Results

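The replication-dependent histone genes of the mouse were examined for open chromatin in natural killer cells. Members were all protein-coding genes of the GENCODE M21 annotation (GRCm38, the mm10 build) whose symbol starts with Hist1h, Hist2h, Hist3h or Hist4h, and 67 of 21853 protein-coding genes met this rule. The rule used names only, no measured value. Chromosome 13 carries the 54 Hist1 members, chromosome 3 the 10 Hist2 members, chromosome 11 both Hist3 members and chromosome 6 Hist4h4. By encoded protein, 6 members were genes of the linker histone H1, 18 of H2A, 18 of H2B, 12 of H3 and 13 of H4. H2A, H2B, H3 and H4 form the nucleosome core, and H1 binds the DNA that enters and leaves it.

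DNase-seq was available for a single group: natural killer cells, cytotoxic lymphocytes of innate immunity, taken as primary cells from male B6CASTF1/J mice aged 2 months. B6CASTF1/J is the first-generation hybrid of C57BL/6J and CAST/EiJ. The 3 libraries carry biological replicate numbers 1 to 3 and separate biosample identifiers but the same donor identifier, and the labels name no sort or gate and no treatment. DNase-seq cuts accessible DNA with DNase I: a peak is a stretch with many cuts, and a footprint is a short stretch inside accessible DNA that is cut less than its surroundings, as a bound protein can cause. With 1 group there was no contrast to test, and an exact sign-flip test over 3 libraries could not go below p = 0.25, so values are given per library with the spread over the 3 libraries and no p-value.

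Replication-dependent histone genes supply the histones that package newly copied DNA. They lie in clusters, have no introns in most cases, and their transcripts end in a stem-loop rather than a poly(A) tail. They are transcribed mainly in S phase, at nuclear histone locus bodies organised by NPAT, which is activated by cyclin E and CDK2. Different promoter elements serve the different types: HINFP binds a site in H4 promoters, OCT1 (POU2F1) binds the octamer of H2B promoters, E2F sites and CCAAT boxes bound by NF-Y are found in several types, and H1 promoters carry an AC-rich box.

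Promoter sequences of the member with the strongest peak of each type are shown because the footprint results below turn on their motifs. The windows run from 250 bases before to 49 after the annotated start, 5′ to 3′ on the gene's strand, and were read from the GRCm38.p6 genome. Capitals mark exact matches, on either strand, to 11 motifs. Core promoter letters were the TATA box, spelled TATAAA, and the CCAAT box. The histone elements were the octamer, spelled ATTTGCAT, the HINFP core, spelled GGTCCG, and the AC box, spelled AAACACA. E2F sites were searched as TTTCGCGC and TTTGGCGC. General elements were the GC box, spelled GGGCGG, the ETS site, spelled CCGGAAG, the CRE, spelled TGACGTCA, and the NRF1 site, spelled TGCGCATGC. Hist1h1c lies at chr13:23738558-23738857 on the plus strand, Hist2h2aa2 at chr3:96240227-96240526 on the minus strand, Hist1h2bf at chr13:23574147-23574446 on the minus strand, Hist1h3e at chr13:23562320-23562619 on the minus strand and Hist1h4c at chr13:23698405-23698704 on the minus strand. Hist1h2ad is transcribed away from Hist1h2bf, and its start lies 185 bp upstream of the Hist1h2bf start, inside the Hist1h2bf window.
Hist1h1c: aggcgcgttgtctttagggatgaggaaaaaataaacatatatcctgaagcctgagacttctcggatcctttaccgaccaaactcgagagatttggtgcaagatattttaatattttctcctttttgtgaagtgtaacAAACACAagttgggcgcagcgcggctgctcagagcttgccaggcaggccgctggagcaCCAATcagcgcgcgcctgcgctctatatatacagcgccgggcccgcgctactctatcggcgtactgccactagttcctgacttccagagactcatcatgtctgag
Hist2h2aa2: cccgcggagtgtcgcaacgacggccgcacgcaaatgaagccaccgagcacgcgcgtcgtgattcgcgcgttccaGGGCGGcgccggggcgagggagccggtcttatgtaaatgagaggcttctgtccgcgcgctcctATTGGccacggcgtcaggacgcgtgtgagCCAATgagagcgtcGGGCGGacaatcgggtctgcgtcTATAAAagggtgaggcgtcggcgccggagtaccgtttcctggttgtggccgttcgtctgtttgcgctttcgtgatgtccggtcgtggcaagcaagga
Hist1h2bf: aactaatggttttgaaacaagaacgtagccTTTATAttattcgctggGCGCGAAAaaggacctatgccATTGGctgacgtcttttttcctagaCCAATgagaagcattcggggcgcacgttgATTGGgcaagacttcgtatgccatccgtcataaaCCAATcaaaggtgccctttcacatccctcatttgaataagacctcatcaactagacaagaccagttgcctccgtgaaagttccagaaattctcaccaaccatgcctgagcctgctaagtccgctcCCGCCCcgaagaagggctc
Hist1h3e: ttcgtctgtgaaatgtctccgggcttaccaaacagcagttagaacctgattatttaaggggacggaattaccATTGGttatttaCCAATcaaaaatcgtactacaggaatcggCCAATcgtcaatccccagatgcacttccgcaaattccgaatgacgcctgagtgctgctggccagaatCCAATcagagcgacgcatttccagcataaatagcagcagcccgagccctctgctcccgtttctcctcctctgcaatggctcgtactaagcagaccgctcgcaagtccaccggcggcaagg
Hist1h4c: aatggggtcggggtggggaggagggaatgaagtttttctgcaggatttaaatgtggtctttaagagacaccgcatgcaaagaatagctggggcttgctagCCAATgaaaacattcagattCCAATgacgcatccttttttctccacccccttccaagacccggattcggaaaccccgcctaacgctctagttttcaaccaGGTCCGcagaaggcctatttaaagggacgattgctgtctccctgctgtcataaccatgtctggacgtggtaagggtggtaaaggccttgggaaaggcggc

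The libraries held 40484, 84564 and 81854 peaks and 101990, 239483 and 222990 footprints in replicates 1, 2 and 3. Read depth is unknown, since the lists give no read counts. Promoters of 10 NK cell marker genes had peaks in 7, 10 and 10 cases, at median percentiles of 79.4, 75.97 and 86.4 among the library's peaks ranked by signal. The highest was Il2rb, an interleukin receptor chain, at 87.6, 91.3 and 96.2, followed by Prf1, which encodes perforin, at 86.9, 90.4 and 94.4, and the lowest NK marker peaks stood at 45.5, 47.4 and 62.3. B cell markers had promoter peaks in 6, 10 and 9 of 10 cases, at medians of 33.7, 84.3 and 68.3, T cell markers such as Cd28 in 3, 7 and 5, and monocyte and macrophage markers in 3, 5 and 4. No promoter of the 10 neutrophil markers had a peak in any library. The NK median was above the B cell median in replicates 1 and 3 and below it in replicate 2, so the markers of the labelled cell type did not stand alone, least of all in replicate 2. In a bulk library, a peak present in fewer cells and a weaker peak in every cell cannot be told apart.

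Most replication-dependent histone promoters were open in NK cells, in that a peak lay at or near the annotated start. A peak overlapped the 500 bp on either side of an annotated start in all 3 libraries for 57 of the 67 members (85.1%), against 51.3% of all protein-coding genes. By library, 57, 58 and 58 members had a peak, against 51.7%, 58.8% and 58% of all protein-coding genes. A footprint lay in the window in all 3 libraries for 55 members (82.1%), against 48.7% of all protein-coding genes. At least 1 base of the window was in the deposited list of bases with a cut rate at a false discovery rate of 0.05 or less in all 3 libraries for 57 members, against 52.3% of all protein-coding genes. Among genes with a peak, the median share of the window in that list was 69.2%, 82.8% and 82.0% for the members, against 52.8%, 59.7% and 57.9% for all protein-coding genes.

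The peaks themselves were of moderate strength. Each library's peaks were ranked by the signal the authors gave them, and a gene was given the percentile of its strongest promoter peak, so that 100 is the strongest peak of the library. The median percentile over members with a peak was 74.6, 88.3 and 87.6 in replicates 1, 2 and 3, against 84.5, 90.6 and 90.2 over all protein-coding genes with a peak. The histone genes were thus more often open, and among open promoters their median was lower by 9.88, 2.34 and 2.55 percentile points. Windows at every annotated start of a gene were searched. Of the 67 members 63 had 1 annotated start, while the 21853 protein-coding genes had 54361 starts. Values over all protein-coding genes thus come from more windows per gene. More windows can raise a gene's percentile, footprint count and odds of a peak, and their part in these differences was not tested. Ranked among promoter peaks alone, the members' median stood at the 39.6 percentile (± 6.20, SD, n = 3). The median number of footprints in the window was 4, 7 and 7 for the members, against 0, 3 and 3 for all protein-coding genes. Among genes with a peak the footprint medians were 5, 8 and 7 for the members, against 5, 7 and 7 for all protein-coding genes.

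Neighbouring members can share a peak, so these values are not independent. The 57, 58 and 58 members with a peak had 48, 49 and 49 distinct strongest peaks. Replicate 1, the library with the fewest peaks, gave the lowest percentile for 56 of the 57 members open in all 3. This was not particular to the members: the median over all protein-coding genes with a peak was also lowest there, at 84.5 against 90.6 and 90.2. The order of members was nonetheless similar between libraries. Spearman's rho over the members was 0.919 for replicates 1 and 2, 0.941 for 1 and 3 and 0.985 for 2 and 3, against 0.955, 0.959 and 0.989 over all protein-coding genes with peaks in both libraries.

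H4 promoters had the strongest peaks of the 5 types and H3 promoters the weakest. The median percentile of H4 genes was 86.4, 92.9 and 91.0 in replicates 1 to 3, or 90.1 ± 3.30 (mean ± SD, n = 3). Medians averaged 85.7 ± 7.11 for H2A, 84.2 ± 6.28 for H1, 84.2 ± 6.20 for H2B and 79.2 ± 10.3 for H3. H4 ranked first in each of the 3 libraries, above H3 by 19.0, 6.89 and 6.70 points and above H2A by 8.97, 2.48 and 1.93 points. The spread within H4 was wide, as the plot of percentiles by histone type shows: H4 held both the strongest and some of the weakest peaks.

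**Figure D1:**
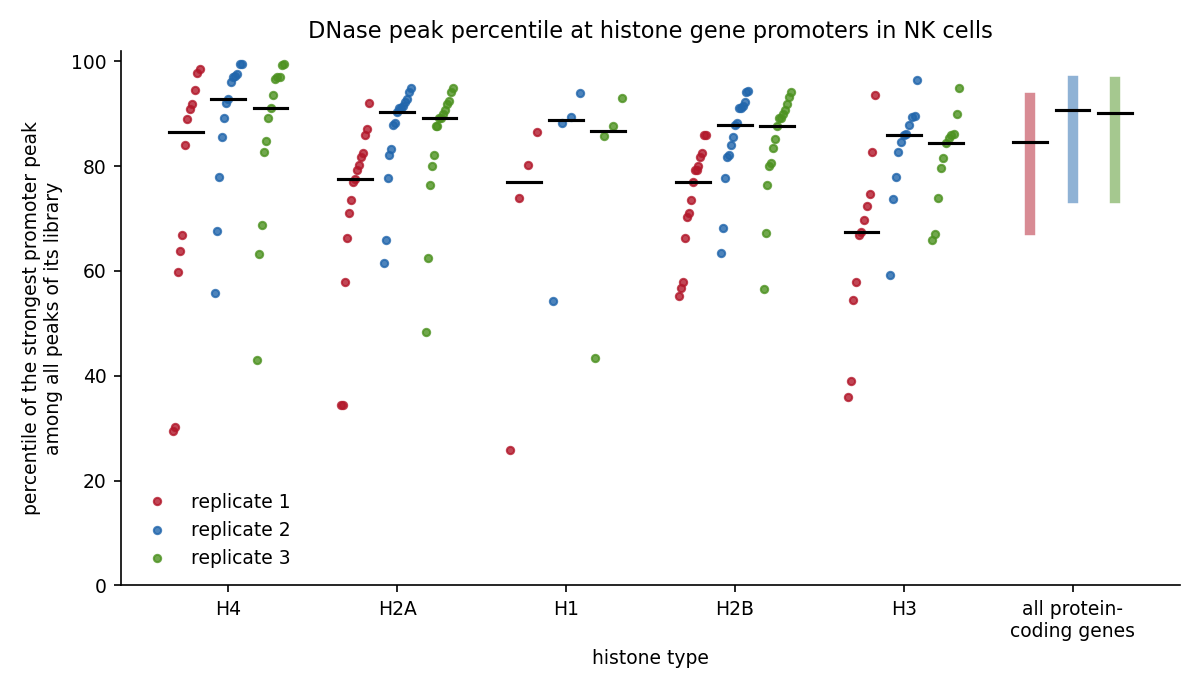
Percentile of the strongest promoter peak (vertical axis) for each histone gene with a peak, by histone type and library. Points are genes, black lines are medians and, for all protein-coding genes, the thick bars span the middle 50% of genes. H4 medians of 86.4, 92.9 and 91.0 are above those of the other histone types in the same library.

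Hist1h4c had the strongest promoter of all members. Its peak signal, in the authors' units, was 9.51, 24.7 and 24.8, at the 98.5, 99.6 and 99.4 percentiles (mean 99.2 ± 0.58). Hist1h4a, the second H4 gene, stood at 97.7, 99.4 and 99.3. At the other end Hist1h4n reached 30.3, 55.8 and 43.1, so that the ranges of these H4 genes did not overlap.

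Among H1 genes, Hist1h1c was highest at 86.5, 93.9 and 93.0, followed by Hist1h1e at 80.1, 89.4 and 87.7. Hist1h1b was the lowest open H1 gene at 25.8, 54.3 and 43.4, with 1, 0 and 2 footprints in its window. These genes encode somatic H1 subtypes, and the 2 higher ones did not overlap Hist1h1b in any library.

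Among H2A genes, Hist2h2aa2 led with 92.1, 94.9 and 94.9, and Hist1h2ad followed with 86.0, 94.1 and 94.2. Hist1h2ab was lowest at 34.5, 61.5 and 48.4. Among H2B genes, Hist1h2bf had 86.0, 94.1 and 94.2, the values of the peak it shares with Hist1h2ad. Hist2h2bb had 85.8, 94.3 and 93.1, while Hist3h2ba was the lowest H2B gene at 56.8, 63.4 and 56.5.

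Among H3 genes, Hist1h3e stood apart at 93.5, 96.3 and 95.0. Hist1h3f was the next at 82.8, 89.5 and 90.03, and Hist2h3c2 the lowest at 36.03, 59.3 and 65.9. The Hist2h3c2 peak was centred over 500 bp upstream of its start and did not cover the start in any library. Hist1h3e thus exceeded the highest value of Hist1h3f in every library.

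The Hist1 members form 2 blocks on chromosome 13 when genes under 200 kb apart are joined. The first block, at chr13:21715763-22043676, holds 23 members and the second, at chr13:23531050-23934851, holds 31. In the second block 27 members were open in all 3 libraries, and in the first 18. The median percentile was 79.2, 89.4 and 86.1 in the second block and 71.1, 87.9 and 85.4 in the first, a difference of 8.07, 1.48 and 0.69 points. The direction varied with type. H4 genes of the second block had medians of 92.8, 97.2 and 96.8, and those of the first 47.0, 77.9 and 68.7. H3 medians were also higher in the second block, as were those of H1 against the 1 H1 gene of the first. H2A went the other way, at 57.9, 82.1 and 76.5 in the second and 73.5, 88.3 and 89.1 in the first. H2B had 79.2, 84.7 and 84.2 in the second and 72.3, 88.1 and 88.4 in the first. In the first block H4 medians were below those of H2A, H2B and H3 (64.5, 80.8 and 79.7) in each library. The first block contains Hist1h4m and Hist1h4n, whose windows are nearly all repeated sequence (described below).

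**Figure D2:**
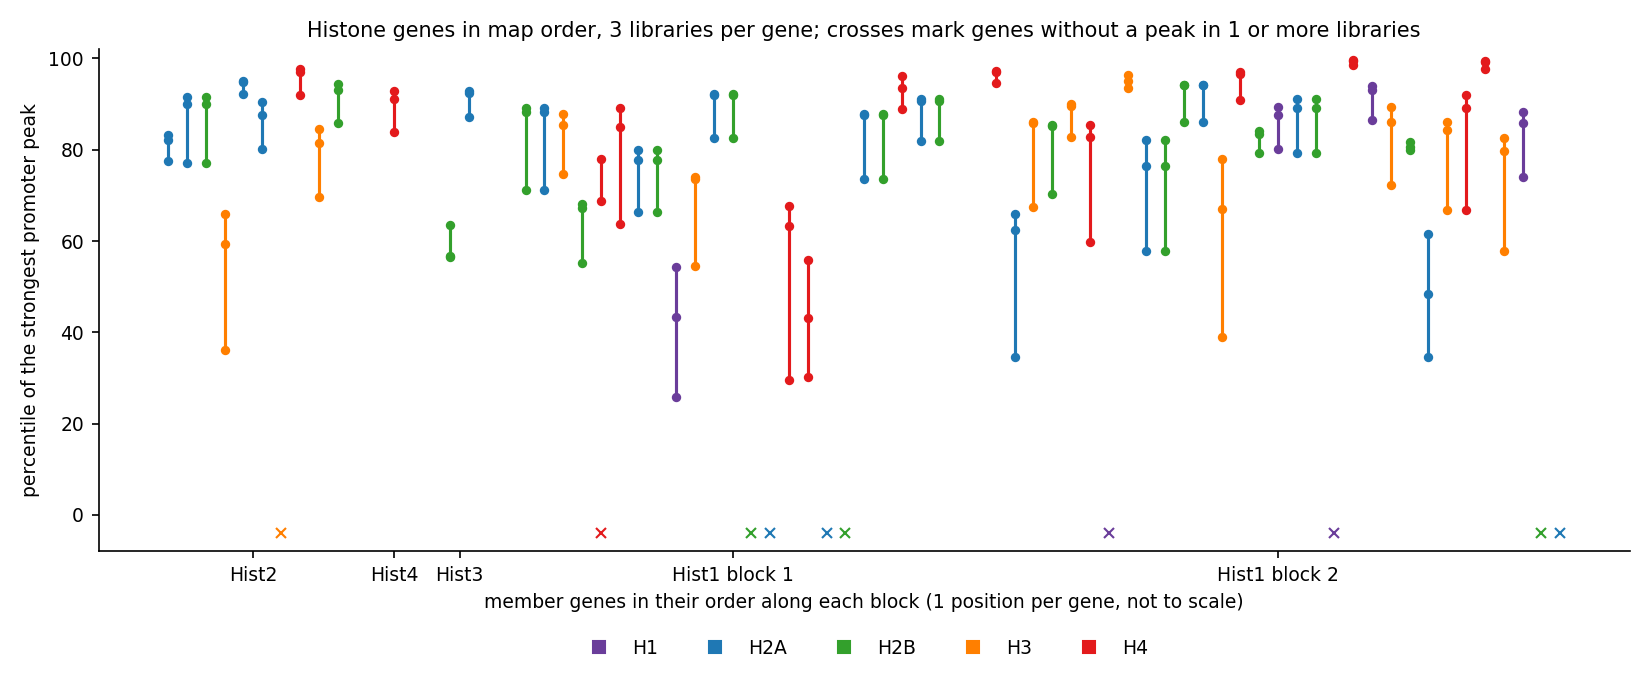
Percentile of the strongest promoter peak (vertical axis) for the 67 members in map order within each block (horizontal axis, not to scale). Each gene has up to 3 points, 1 per library, joined by a line, and colours give the histone type. Crosses at the bottom mark the 9 members without any peak and Hist1h4j, which had none in replicate 1. The open members run through both Hist1 blocks.

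The stretch between the blocks was closed at most of its genes. It spans 1487 kb and holds 40 other protein-coding genes, 36 of them vomeronasal receptor genes (Vmn1r), which sense pheromones. None of the 36 had a promoter peak in any library, and 3 of the 40 were open in all 3. The peak percentiles in replicates 1, 2 and 3 were 91.1, 93.7 and 93.4 at Zfp322a, 85.3, 94.8 and 94.3 at Abt1, and 7.25, 65.2 and 52.1 at Btn2a2. Inside the second block, 5 genes, Trim38 and the solute carriers Slc17a1, Slc17a2, Slc17a3 and Slc17a4, had no peak in any library, and Hfe, a regulator of iron uptake, was open at 47.7, 72.6 and 75.8. The 5 closed genes lie between Hist1h1a, an open member, and the Hist1h2ba and Hist1h2aa pair, which had no peak.

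Peaks inside the second Hist1 block fell mostly at members: 33 of 46, 33 of 59 and 32 of 60 peaks overlapped a member's window. In the first block 17 of 38, 19 of 65 and 19 of 66 did.

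The Hist2 cluster, at chr3:96219865-96270132, is compact and held no other protein-coding gene. At members' windows lay 12 of 13, 11 of 12 and 12 of 14 of its peaks. Hist2h2ab had percentiles of 77.5, 83.2 and 82.1, and the Hist2h2ac and Hist2h2be pair shared a peak at 77.0, 91.5 and 89.99. Hist2h2aa1 reached 80.1, 90.4 and 87.6, below Hist2h2aa2 in each library. Hist2h4 stood at 91.9, 97.6 and 97.1, and Hist2h3b at 69.7, 84.6 and 81.5. Of the Hist2 members, 9 of 10 were open in all 3 libraries, Hist2h3c1 being the exception.

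The smaller loci differed. Hist4h4, a lone gene, stood at 83.9, 92.9 and 91.0. Hist3h2a had 87.1, 92.8 and 92.3, from a peak it shares with Trim17, whose annotated start is at the same base, so the peak cannot be given to either gene. Its neighbour Hist3h2ba, given above, was the lowest open H2B gene.

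Most divergent H2A and H2B pairs were open. There were 12 pairs of members transcribed away from each other from starts less than 500 bp apart, and each paired an H2A with an H2B gene. The starts lay 176 to 306 bp apart, with a median of 259.5 bp. In 9 pairs both genes had a peak in all 3 libraries. The strongest peak was the same for both genes of each of these pairs, which the layout nearly fixes, since the windows of a pair overlap by 695 to 825 bp. The highest were Hist1h2bf with Hist1h2ad, given above, Hist1h2an with Hist1h2bp at 82.6, 92.2 and 91.9, and Hist1h2ag with Hist1h2bj at 81.8, 91.0 and 90.6. In the other 3 pairs neither gene had a peak in any library: Hist1h2ap with Hist1h2br, Hist1h2ao with Hist1h2bq, and Hist1h2aa with Hist1h2ba. The windows of Hist1h2ap, Hist1h2br, Hist1h2ao and Hist1h2bq held only repeated 36-base words, and Hist1h2aa and Hist1h2ba are testis genes (both described below). Through these 3 pairs, paired members were open less often than unpaired ones. Of 24 paired members 18 (75%) were open in all 3 libraries, against 39 of 43 unpaired members (90.7%) and 51.3% of all protein-coding genes. All 12 unpaired H2A and H2B genes were open in all 3.

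Among members with a peak, paired ones had slightly higher medians, at 77.0, 91.0 and 89.1, against 73.9, 87.0 and 85.2 for unpaired ones. The mean difference was 3.67 ± 0.52 points (SD, n = 3). With 1000 bp on either side of the start the difference was 0.71 ± 1.56 points. With both sides limited to H2A and H2B genes the difference was -1.33, 7.42 and 6.42 points, so it had no common sign over the 3 libraries.

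The 9 members without a peak in any library were Hist1h2ao, Hist1h2ap, Hist1h2bq, Hist1h2br, Hist2h3c1, Hist1h1d, Hist1h1t, Hist1h2aa and Hist1h2ba. They also had no footprint in their windows. Against these 13.4% of members, 39.6% of all protein-coding genes had no promoter peak in any library.

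Repeated sequence accompanied 5 of them. The share of the 36-base words in each member's window that occur once in the genome was counted, since reads from repeated words cannot be placed at 1 site. No word was unique in the windows of Hist1h2ao, Hist1h2ap, Hist1h2bq and Hist1h2br, which lie beside Hist1h4m and Hist1h4n in mirrored order, and 3.60% of words were unique for Hist2h3c1. With words of 76 bases the first 4 still had none.

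In all, 8 members had under 10% unique words, the 5 above, Hist1h4n with 3.20%, Hist1h4m with 6.39% and Hist2h3c2 with 5.09%. The promoters of Hist1h4m and Hist1h4n were 99.7% identical over 300 bases. These 3 open genes had low percentiles in replicate 1 (30.3 for Hist1h4n, 29.5 for Hist1h4m and 36.03 for Hist2h3c2), and Hist1h4m reached 67.7 and 63.3 in replicates 2 and 3. The other 59 members had at least 30.4% unique words, and 54 of them (91.5%) were open in all 3 libraries. Low unique shares did not always go with weak peaks: Hist2h2aa2, with 30.4% unique words, was the strongest H2A gene. How reads with several matches were handled is not given in the sources used here, and the part of repeated sequence in these values was not tested.

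**Figure D3:**
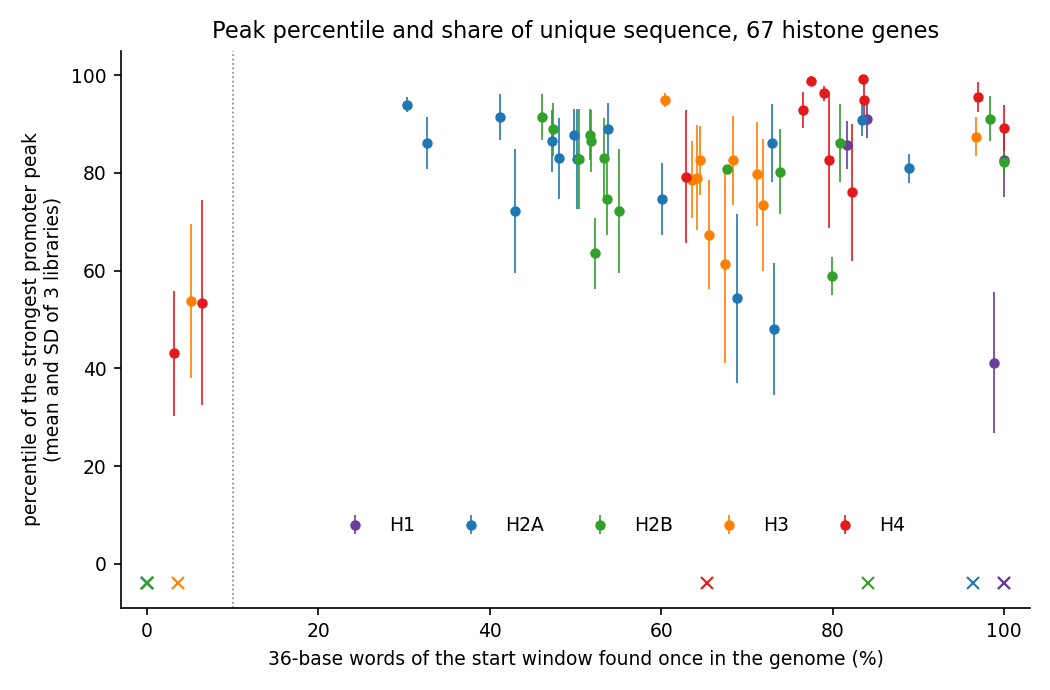
Mean percentile of the strongest promoter peak (vertical axis, bars are the SD of 3 libraries) against the share of 36-base words of the start window that occur once in the genome (horizontal axis), for the 67 members. Crosses mark members without a peak in 1 or more libraries, and the dotted line marks 10%. Of the 8 members left of it, 5 had no peak and 3 had mean percentiles of at most 53.7.

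The testis members had no peak although their sequence could be placed. Hist1h1t, the testis linker histone, had 100% unique words, Hist1h2aa 96.4% and Hist1h2ba 84.1%. Hist1h2aa and Hist1h2ba encode the testis H2A and H2B that serve in male germ cells. All 3 lacked peaks and footprints in each of the 3 libraries.

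Hist1h1d was closed only at its annotated start. That start lies 1828 bp upstream of the first coding base, and its window had 100% unique words and no peak. Around the first coding base, a window chosen after its values were seen, peaks stood at 47.7, 75.7 and 70.8 with 7, 7 and 6 footprints. Hist1h2be has the same problem, with an annotated start 35168 bp from its coding sequence and near Hist1h1e. At its annotated start it had 79.2, 84.0 and 83.4, and at its coding start 72.1, 80.2 and 79.8. In the other 65 members the start was within 500 bp of the coding sequence, and in 60 within 100 bp.

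Hist1h4j was open in replicates 2 and 3 only, at 77.9 and 68.7, with 0, 6 and 4 footprints in replicates 1 to 3. It was the only member with a peak in some libraries and not others.

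Most H4 promoters shared a motif, which footprints covered more often in some libraries than in others. The HINFP core GGTCCG occurred in 12 of the 13 H4 promoters and in 22.4% of all members' promoters, against 9.77% of all protein-coding promoters. In H4 genes it lay 80 to 11 bases upstream of the annotated start, always on the coding strand, with a median of 49. It is shown here with the bases from 24 before to 30 after it, because the footprint counts below refer to it. Capitals mark the same motifs as above, and in Hist1h4j and Hist1h4k the core overlaps a GC box.
Hist1h4b: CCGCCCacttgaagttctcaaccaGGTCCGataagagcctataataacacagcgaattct
Hist1h4c: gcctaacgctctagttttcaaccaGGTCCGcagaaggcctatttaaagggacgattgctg
Hist1h4d: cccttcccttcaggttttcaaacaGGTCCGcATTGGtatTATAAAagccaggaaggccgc
Hist1h4f: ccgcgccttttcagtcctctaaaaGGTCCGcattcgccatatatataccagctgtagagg
Hist1h4h: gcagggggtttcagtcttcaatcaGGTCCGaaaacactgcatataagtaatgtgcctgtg
Hist1h4i: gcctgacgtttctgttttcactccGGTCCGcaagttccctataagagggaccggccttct
Hist1h4j: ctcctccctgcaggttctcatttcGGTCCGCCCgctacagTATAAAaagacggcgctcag
Hist1h4k: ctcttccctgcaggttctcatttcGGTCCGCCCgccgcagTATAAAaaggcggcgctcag
Hist1h4m: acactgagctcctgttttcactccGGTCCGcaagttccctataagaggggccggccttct
Hist1h4n: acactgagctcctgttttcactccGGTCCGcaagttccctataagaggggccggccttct
Hist2h4: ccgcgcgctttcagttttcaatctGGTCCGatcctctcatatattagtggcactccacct
Hist4h4: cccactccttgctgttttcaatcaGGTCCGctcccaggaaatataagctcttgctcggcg

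The genome positions of these 60-base stretches, all in GRCm38, were chr13:23756919-23756978 (Hist1h4b, plus), chr13:23698469-23698528 (Hist1h4c, minus), chr13:23581497-23581556 (Hist1h4d, plus), chr13:23551679-23551738 (Hist1h4f, minus), chr13:23531015-23531074 (Hist1h4h, plus), chr13:22041373-22041432 (Hist1h4i, minus), chr13:21734992-21735051 (Hist1h4j, plus), chr13:21750550-21750609 (Hist1h4k, minus), chr13:21811675-21811734 (Hist1h4m, plus), chr13:21832208-21832267 (Hist1h4n, minus), chr3:96263344-96263403 (Hist2h4, minus) and chr6:136804428-136804487 (Hist4h4, minus). The 24 bases upstream of the core held TTTTCA in 8 of the 12 and TTCTCA in 3 others, and the 30 bases after it held TATA in 11, Hist1h4c being the exception. These letters were looked for after the sequences were seen.

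Footprints covered at least 50% of the bases of the H4 core in 5, 11 and 8 of the 12 promoters in replicates 1, 2 and 3. It was covered in all 3 libraries in Hist1h4c, Hist1h4d, Hist1h4i, Hist2h4 and Hist4h4, whose mean peak percentiles were 99.2, 94.9, 92.9, 95.5 and 89.3. Hist1h4m, at a mean of 53.5, was the only one not covered in any library. The others were covered in some libraries only. Among them, Hist1h4h, at a mean of 96.3, was covered in replicates 2 and 3. Hist1h4n, at a mean of 43.1 and with a promoter 99.7% identical to that of Hist1h4m, was covered in replicate 2. In Hist1h4c the covering footprint ran from -51 to -24 in replicate 1, from -69 to -24 in replicate 2 and from -68 to -24 in replicate 3, counted from the start. Footprints are called where cuts are plentiful, and the part of peak strength in these counts was not tested.

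Over all members with a peak, footprints covered 35.7%, 86.7% and 66.7% of the matches to GGTCCG (63.0 ± 25.7%, SD, n = 3), against 18.6%, 26.5% and 25.9% (23.7 ± 4.43%) over all protein-coding genes with a peak. The members' share was higher in each library, but matches were not compared at like positions. In the members' promoters 12 of 15 matches were the H4 core, at -80 to -11. Matches over all protein-coding genes could lie anywhere in the promoter window. Over all protein-coding genes with a peak, replicate 2 footprints covered 26.5% of bases from -75 to -51 and 10.3% from -225 to -201. The part of position in the members' higher share was not tested.

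Hist1h4a, the H4 gene without the core, had the second strongest peak. Its promoter at chr13:23761181-23761480, minus strand, is shown for comparison.
Hist1h4a: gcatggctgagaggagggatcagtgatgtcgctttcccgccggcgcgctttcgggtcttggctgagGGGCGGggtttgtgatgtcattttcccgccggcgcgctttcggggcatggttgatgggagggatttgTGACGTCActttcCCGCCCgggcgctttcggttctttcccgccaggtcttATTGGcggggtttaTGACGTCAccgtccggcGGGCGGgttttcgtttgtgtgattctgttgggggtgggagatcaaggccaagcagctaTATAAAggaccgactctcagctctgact

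It has 2 CRE sites, the target of ATF and CREB factors, at -117 and -53, and 3 GC boxes, the target of SP factors, at -184, -104 and -36. All 5 matches were inside footprints in each of the 3 libraries. The CRE of Hist1h4h at -76 was also covered in all 3. CRE letters were in 5.97% of the members' promoters, against 2.46% of all protein-coding promoters. Among H4 genes, 10 of 13 had a GC box, and of their 15 matches 9, 12 and 10 were inside footprints. The 12 matches in H3 genes lie in 2 promoters with few unique words. Hist2h3c1 holds 6 of them and had no peak or footprint, and of the 6 in Hist2h3c2, whose strongest peak was centred over 500 bp upstream, 0, 1 and 3 were covered. A GC box was no more common in the members' promoters (41.8%) than in all protein-coding promoters (43.8%).

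CCAAT boxes were the most common element. A CCAAT was found in 83.6% of the members' promoters, against 39.0% of all protein-coding promoters. All 18 H2A, all 18 H2B, 11 of 12 H3, 5 of 6 H1 and 4 of 13 H4 genes held it. The H1 and H3 genes without it were Hist1h1d and Hist1h3f, whose annotated starts lie 1828 and 433 bp from the first coding base. The window of Hist1h2be, counted among the H2B genes, lies at an annotated start 35168 bp from its coding sequence. With sites in overlapping windows counted once, there were 111 of them, and footprints covered 10, 20 and 27. In promoters with a peak the covered share of matches was 19.5 ± 10.4% for the members, against 19.1 ± 4.46% for all protein-coding genes, a difference smaller than the spread between libraries. The 7 CCAAT matches of H1 genes were not covered in any library. The printed Hist1h2bf promoter has 4 CCAAT boxes and Hist1h3e has 4.

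TATA letters were found, on either strand, in 55.2% of the members' promoters, against 12.6% of all protein-coding promoters. Footprints covered 25%, 59.5% and 32.4% of the matches in members with a peak, against 9.70%, 14.2% and 13.8% in all protein-coding genes with a peak. In these shares a site between paired genes can count for both. Counted once, all members held 35 distinct sites, of which footprints covered 7, 17 and 10. Matches in H2B genes had a median position of -185, and in pairs an H2A start lies 176 to 306 bp upstream, so some belong to the partner's side.

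Octamer and E2F letters were found in H2A and H2B promoters only among the members. The octamer ATTTGCAT was present in 22.4% of members' promoters (7 H2A and 8 H2B genes), against 1.60% of all protein-coding promoters. These were 10 distinct sites, and footprints covered 0, 3 and 1 of them. TTTCGCGC was present in 13.4% of members' promoters (5 H2A and 4 H2B genes), against 0.362% of all protein-coding promoters. Its 5 distinct sites were covered in 3, 3 and 4 cases. The site in both the Hist1h2bf and the Hist1h2ad window, 11 bases after the Hist1h2ad start and printed above as its reverse complement, and those of the Hist1h2ag and Hist1h2ah pairs were covered in all 3 libraries. No member held the other E2F form, TTTGGCGC, found in 0.700% of all protein-coding promoters, nor the NRF1 letters, found in 2.26%.

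The AC box AAACACA was present in 4 of the 6 H1 promoters, 117 to 113 bases upstream of the start, and in 13.4% of members' promoters, against 6.43% of all protein-coding promoters. Footprints covered 0, 1 and 0 of the 4. The covered one was that of Hist1h1c, in replicate 2. The ETS letters occurred in 1.49% of members' promoters, against 11.0% of all protein-coding promoters.

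**Figure D4:**
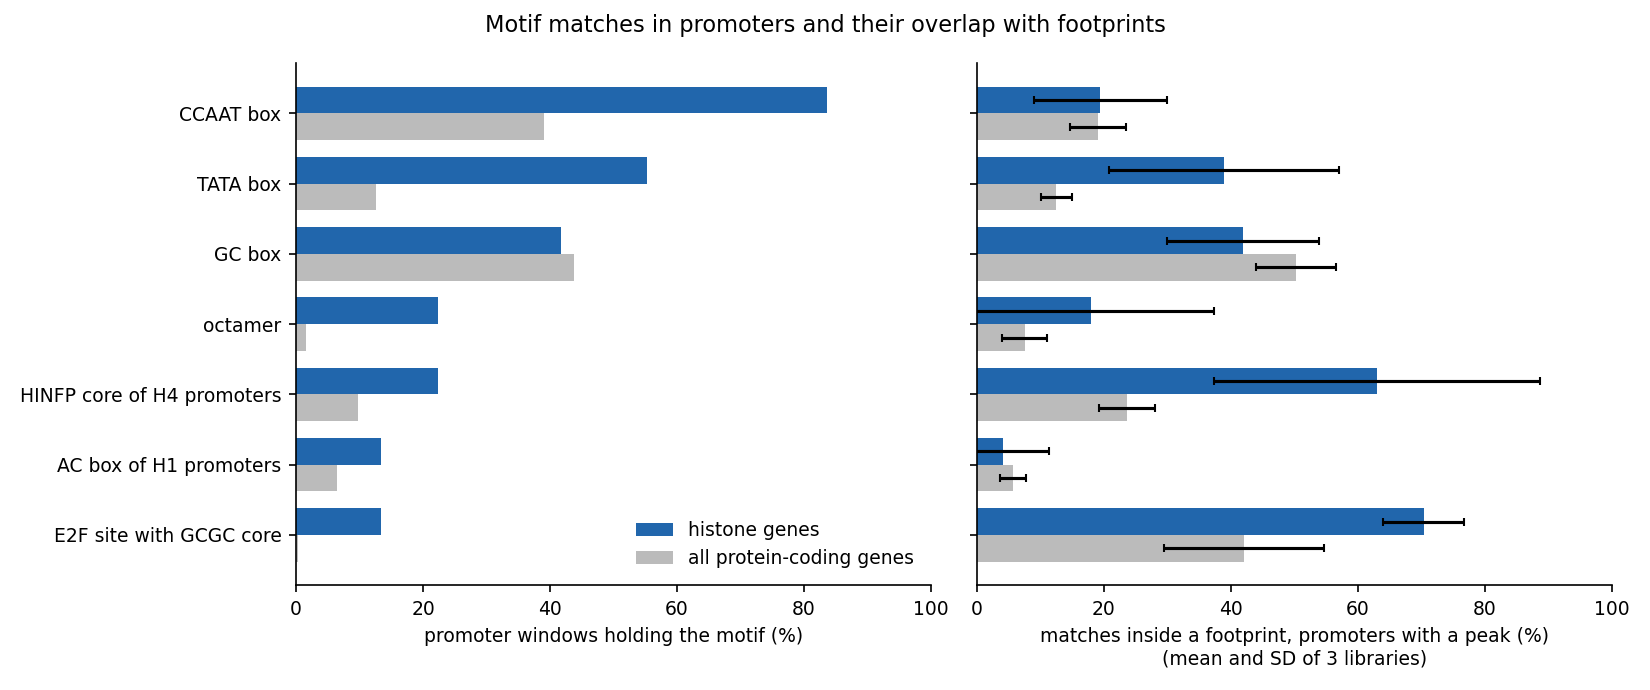
Left, share of promoter windows (250 bases before to 49 after the start) that hold each motif, for the histone genes (blue) and all protein-coding genes (grey). Right, share of matches with at least 50% of their bases inside a footprint, in promoters with a peak, as the mean and SD of 3 libraries. CCAAT boxes are present in 83.6% of histone promoters and 39.0% of all, with like footprint shares, while the HINFP core has 63.0% and 23.7% of its matches inside footprints. Matches were not compared at like positions in the window.

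Histone promoters were lower in median GC content and higher in CpG ratio than all promoters. The median GC content of the 300-base windows was 45.3% for the members and 55.3% for all protein-coding genes. The ratio of observed to expected CpG was 0.750 for the members and 0.537 for all protein-coding genes. H3 windows had the lowest median GC content of the 5 types, at 41.8%.

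The position of footprints varied with histone type. Among genes with a peak, in bins of 25 bp, the share of bases inside a footprint was highest from -75 to -51 for the members, at 19.2%, 33.9% and 33.4% in replicates 1 to 3. For all protein-coding genes it was highest from -25 to -1, at 23.5%, 29.2% and 29.3%. H4 genes reached 57.8% and 52.9% from -75 to -51 in replicates 2 and 3, and 33.3% from -50 to -26 in replicate 1. The 4 open H1 genes were highest from -25 to -1 in replicates 1 and 2, the bin of all protein-coding genes, and from -50 to -26 in replicate 3. H3 genes were highest from -25 to -1 in replicate 1 and from -75 to -51 in replicates 2 and 3. H2A genes were highest from -75 to -51 in replicate 1 and from -50 to -26 in replicates 2 and 3. H2B genes were highest from -225 to -201 in replicates 1 and 3 and from -150 to -126 in replicate 2, and in pairs an H2A start lies 176 to 306 bp upstream. In 11 members the annotated start is the first coding base, so distances there are counted from the coding sequence. Middles of the strongest peaks had a median of -35.5, -65.5 and -73 bp from the start over members, against -30.5, -34.5 and -35.5 bp over all protein-coding genes with a peak.

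**Figure D5:**
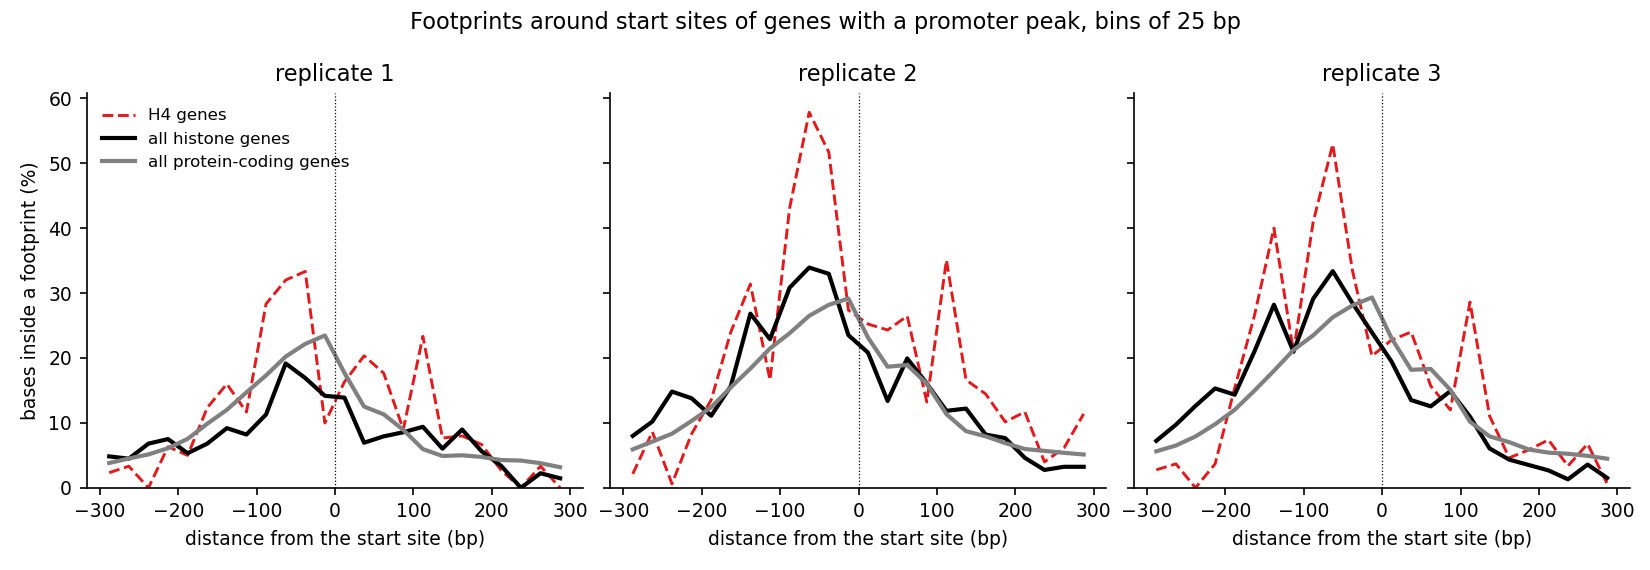
Share of bases inside a footprint (vertical axis, %) by distance from the start site (horizontal axis, bp, negative is upstream), in bins of 25 bp, for H4 genes (dashed red), all histone genes (black) and all protein-coding genes (grey) with a promoter peak, 1 panel per library. The black line is highest at -75 to -51 and the grey line at -25 to -1 in each library.

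Promoters of genes that regulate or process histone transcripts were open too. Members with a peak had a median percentile of 83.5 ± 7.70 and 28 genes of the histone gene machinery had 96.7 ± 1.59, against 88.4 ± 3.41 for all protein-coding genes with a peak (SD, n = 3). All 28 were open in all 3 libraries, against 51.3% of all protein-coding genes. Nfya, an NF-Y subunit, stood at 99.82, 99.97 and 99.94, and Casp8ap2, which encodes the histone locus body protein FLASH, at 99.8, 99.7 and 99.8. Npat, Hinfp and Slbp were singled out for their roles after their values were seen. Npat stood at 98.7, 99.6 and 99.7 and Hinfp at 97.5, 99.2 and 99.1, and Slbp, whose product binds the stem-loop of histone transcripts, had 97.8, 96.9 and 96.8.

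Against the same 51.3%, histone chaperone genes were open in all 3 libraries in 14 of 14 cases, led by Nap1l4 (99.8, 99.6 and 99.6) and Hjurp (99.2, 99.5 and 99.6). Of 20 replication and proliferation genes 19 were open in all 3, with Mcm4 and Mcm5, subunits of the replicative helicase, at means of 98.7 and 98.5. Of 14 matched replication-independent histone genes 9 were open in all 3. H2afv and H2afx led them at means of 98.8 and 98.4, and the germ cell linker histones H1foo, Hils1 and H1fnt had no peak in any library.

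Peak signal differed between libraries for several types. The log2 signal of each library was centred on the median over protein-coding genes open in all 3. Each difference below is between single libraries, so the counts above 0 are of genes, not of replicates. Replicate 2 minus replicate 3 had a median of 0.09 over 58 members, 37 of them above 0. Over all protein-coding genes it was 0.005, with 6332 of 12379 above 0. By type the median was 0.17 for H4 (13 of 13 above 0), 0.15 for H3 (7 of 11), 0.14 for H1 (4 of 4), -0.01 for H2A (7 of 15) and -0.03 for H2B (6 of 15). Replicate 1 minus replicate 2 had a median of -0.38 over H4 genes, with 1 of 12 above 0, and of -0.11 over all members. It was -0.24 over the histone gene machinery, with 6 of 28 above 0, and -0.007 over all protein-coding genes, with 5532 of 11240 above 0. Replicate 1 minus replicate 3 had a median of -0.29 over H4 genes, with 4 of 12 above 0, and of -0.01 over all members. Over all protein-coding genes that median was -0.016, with 5442 of 11233 above 0. The difference between replicates 2 and 3 was 1.07 for B cell markers (9 of 9 above 0) and -0.98 for NK markers (0 of 10 above 0). The part of cell composition in these differences was not tested.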

How the data were processed

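DNase-seq of 3 libraries was analysed from the authors' lists for mm10. Each library has 2 peak lists with a signal value per peak, deposited per library, and the unit of that signal is not given in the sources used here. The deposited footprint lists hold intervals only, with a score of 0.01 in every row. The deposited cut-rate lists give false discovery rates, used as q-values, of 0.05 or less. For the aligner and the callers, and for the handling of CAST/EiJ reads or of reads with several matches, nothing is given in the sources used here. Read depth is unknown, so precision rests on the spread over 3 libraries, which may be technical.

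The larger peak list was used (40484, 84564 and 81854 peaks), and peaks were ranked by signal within a library. Overlap of at least 1 base with 500 bp on either side of any of 54361 protein-coding transcript starts assigned peaks and footprints to 21853 genes. Unique words, motif letters and sequences came from GRCm38.p6. Python 3.11.15, NumPy 2.4.6, pandas 2.3.3, SciPy 1.17.1 and matplotlib 3.10.9 were used. Overlap and word counting were tested on simulated data. No test was run, as there is 1 group.

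Members and gene lists were chosen with earlier results of these data known. Genes given with values in every library were, per type, the 2 highest and the lowest open in all 3, members without a peak in 1 or more libraries, testis members, all Hist2, Hist3 and Hist4 members, and the 3 highest pairs. Of each other list, the 2 highest and up to 2 without a peak were to be named. Npat, Hinfp, Slbp, H1fnt, Hist1h4a's promoter and genes beside the clusters were added after their values were seen. Alternatives covered window width, start site, peak list, peak filter, block gap, word length and each library left out.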

Additional observations from a re-analysis of the deposited data

How the results depend on the processing

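Of 236 recomputed values of 27 results, 217 moved by no more than a margin, and the other 19 were counted as moved. The margin was the SD over libraries, and for counts 1.5 times. For the difference between replicates 2 and 3 it was the SD over genes. The share of unique words with 76 bases was counted as moved without a margin. Only results that are differences could change sign, and none did. Where a result is a mean over the 3 libraries, leaving 1 out cannot shift it by more than the SD over libraries. Such values were among the 217 by construction and say nothing on how stable the results are. The number of members open in all 3 libraries was 57, was 57 around coding starts and was 54 of 59 without the 8 members with under 10% unique words, both chosen after seeing the data. The 57 around coding starts were not the same genes. Hist1h1d was open there in all 3 libraries, while Hist2h3c2 had no peak there in replicate 1. Keeping the better-scoring 50% of peaks ranked the members' median at 69.6, with H1 at 71.1, H2A at 72.5, H2B at 68.4, H3 at 60.2 and H4 at 83.5. Ranked among promoter peaks only, the medians were 39.6 for all members, 40.7 for H1, 44.1 for H2A, 40.3 for H2B, 33.2 for H3 and 55.6 for H4. H4 was thus highest and H3 lowest under both. The stricter peak list put H1 at 77.9. Paired minus unpaired was 4.25 with windows of 250 bp, 0.71 with windows of 1000 bp and 4.21 with the peak's middle in the window. The median number of footprints was 4 when only footprints inside peaks counted. The median share of unique words was 65.5% with 36 bases and 78.02% with 76 bases. The E2F letters were wholly inside a footprint in 44.4% of matches. The cause of these shifts was not tested, except where fewer peaks or footprints enter by construction.

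Leaving out each library in turn gave 57 to 58 members open in all libraries used, 45 to 46 for Hist1, 9 for Hist2, 2 for Hist3 and 1 for Hist4, and 18 to 19 in the first and 27 in the second Hist1 block. Median percentiles ranged from 81.1 to 87.9 for all members, 81.9 to 87.8 for H1, 83.3 to 89.7 for H2A, 82.3 to 87.7 for H2B, 75.9 to 85.2 for H3 and 88.7 to 91.9 for H4. Median footprints ranged from 5.50 to 7, and paired minus unpaired from 3.49 to 3.96. Footprinted shares ranged from 50% to 76.7% for the HINFP core, 24.4% to 39.5% for TATA, 12.5% to 21.4% for CCAAT, 6.67% to 23.3% for the octamer, 66.7% to 72.2% for E2F, 31.9% to 41.5% for the GC box and 0 to 5% for the AC box. No paired analysis was possible because there is 1 group.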

Other observations

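The annotation also lists 3 histone pseudogenes that the rule on protein-coding genes left out. The window at the start of Hist1h2aj, an H2A pseudogene in the first Hist1 block, held 2, 2 and 1 peaks in replicates 1, 2 and 3. Hist3h2bb-ps, which lies close to the shared start of Hist3h2a and Trim17, held 2 in each library. Hist1h2al, on chromosome 13 outside both Hist1 blocks, held 1 in each.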
